A study of Mus musculus with 12 samples.

Results

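The genes described here are the B-class Eph receptors (Ephb1, Ephb2, Ephb3, Ephb4 and Ephb6), the B-class ephrins that bind them (Efnb1, Efnb2 and Efnb3), and the A-class receptor Epha2 with its ligand Efna1, in mouse osteosarcoma cells. They were found by the accession that each array probe carries, which gave 10 genes on 13 probes out of 20144 genes on 39429 probes. Efnb2, Ephb4 and Ephb6 had 2 probes each, and a gene is described by the probe that was brighter on average over all arrays. The rule that chose them uses no measured value, but they were proposed with earlier results of these data known.

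Gene expression was measured on 12 one-colour Agilent arrays, 3 for each of 4 groups. Dunn is a mouse osteosarcoma cell line of low metastatic potential and LM8 is a metastatic line that was derived from Dunn by selection in vivo, so each line stands for 1 lineage. Dunn cells were measured at passage 25 (Dunn_25, early) and passage 86 (Dunn_86, late), and LM8 cells at passage 24 (LM8_24, early) and passage 91 (LM8_91, late). The labels name no treatment and no transgene in any group, and give both lines as osteoblastic. The methods give 3 samples per condition, taken from frozen cell pellets, and do not say whether these were separate cultures. The p-values therefore measure the spread between such samples of 1 line. With passages pooled, the early and late arrays of a line were fitted as 1 group, so that spread also takes in differences between passages. The questions asked of these arrays were which genes changed during long culture of each line and which differed between LM8 and Dunn cells whatever the passage.

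Eph receptors are receptor tyrosine kinases whose ligands, the ephrins, are held on the surface of the neighbouring cell. Contact sends a forward signal into the cell with the receptor and a reverse signal into the cell with the ephrin, and the outcome is often repulsion, sorting or altered adhesion. In bone, ephrin-B2 on osteoclast precursors and EphB4 on osteoblasts are known as a contact signal between the cell type that resorbs bone and the one that forms it.

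All values below are log2 relative signals, the log2 of the processed signal of a probe less the log2 of the 75th percentile of its array, and all differences are differences of that value. A probe's signal depends on its sequence, so no level is set against that of another gene. A gene was called where the difference was over 2-fold and the adjusted p of limma was under 0.05 over all probes. The 75th percentile of signal ranged from 332.1 to 956.9 on the Dunn arrays and from 797.1 to 1813 on the LM8 arrays, and the share of probes well above background from 39% to 59.6%. One array, Dunn_86 replicate 1, stood apart from its replicates, with correlations of 0.919 and 0.923 where the other pair of that group reached 0.986. Osteoblast markers were present in every group: of 7 matched markers, 6 were well above background on all 3 arrays in both Dunn groups and 7 in both LM8 groups. Of the 6 endothelial markers, 1 or 2 were well above background on all 3 arrays of a group, and 3 to 5 on no array of a group. Kdr was well above background on all 3 arrays of every group. The epithelial markers were not well above background on all 3 arrays of any group. Of 7 osteoclast or macrophage markers 1 or 2, of 4 neural markers 1 to 3 and of 4 chondrocyte markers 1 to 3 were well above background on all 3 arrays of a group. In the culture of LM8 cells 1 of the 7 osteoclast or macrophage markers was called, where 2.85% of all genes were. This was Ctsk, a cathepsin of osteoclasts, which was lower in late cells (-5.20, limma adjusted p = 0.000601). The osteoclast markers Acp5 (0.52, adjusted p = 0.397) and Ocstamp (0.67, adjusted p = 0.328) were well above background on 3 and 1 of 12 arrays. Ptprc, Csf1r, Adgre1 and Calcr were lower in late cells without a call. The list's median was -0.44, against -0.18 over all genes. With passages pooled 1 of the 4 neural markers and none of the osteoclast or macrophage markers were called, where 12.6% of all genes were. The neural one was Tubb3, a neuronal tubulin, which was higher in LM8 cells (1.91, adjusted p = 0.00257). The summed level of the neural markers relative to the 75th percentile was 4.31 to 10.1 on the Dunn arrays and 3.79 to 6.45 on the LM8 arrays. The part of these markers in the results below was not tested. The median difference between LM8 and Dunn cells was -0.69 over all probes and -0.25 over the 12760 probes that were detected (well above background) on every array, so differences between the lines should be read against that shift.

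The promoters of Epha2, Efnb1 and Ephb6 are shown because these were the members that differed between the lines. Each is 300 bases from RefSeq, from 250 before to 50 after the gene start, with the motif matches in capitals. RefSeq promoters were matched for 9 of the 10 genes, and Efnb3 was not matched.
Epha2 (mouse GRCm38.p6, chr4:141300971-141301270, plus strand): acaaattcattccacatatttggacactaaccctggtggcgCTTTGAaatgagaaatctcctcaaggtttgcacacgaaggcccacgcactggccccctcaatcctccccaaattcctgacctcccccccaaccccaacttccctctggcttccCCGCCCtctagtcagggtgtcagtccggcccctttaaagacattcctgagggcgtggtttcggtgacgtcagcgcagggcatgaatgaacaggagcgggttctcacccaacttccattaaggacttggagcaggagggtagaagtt
Efnb1 (mouse GRCm38.p6, chrX:99135811-99136110, plus strand): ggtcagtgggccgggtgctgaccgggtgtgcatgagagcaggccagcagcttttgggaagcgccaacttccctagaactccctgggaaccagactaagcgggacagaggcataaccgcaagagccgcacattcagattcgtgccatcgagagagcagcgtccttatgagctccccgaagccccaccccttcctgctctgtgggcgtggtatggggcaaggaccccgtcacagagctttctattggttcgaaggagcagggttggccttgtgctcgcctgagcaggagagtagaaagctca
Ephb6 (mouse GRCm38.p6, chr6:41605261-41605560, plus strand): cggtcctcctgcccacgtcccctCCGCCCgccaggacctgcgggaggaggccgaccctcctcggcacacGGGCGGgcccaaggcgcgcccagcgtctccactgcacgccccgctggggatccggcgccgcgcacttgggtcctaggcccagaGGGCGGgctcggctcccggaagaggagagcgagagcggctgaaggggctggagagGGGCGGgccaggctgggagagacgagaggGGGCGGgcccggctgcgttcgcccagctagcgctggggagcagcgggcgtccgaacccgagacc
The 6 motifs searched on both strands were the GC box (GGGCGG), the TATA box (TATAAA), the E-box (CACGTG), the AP-1 site (TGACTCA), the RUNX site (TGTGGT) and the TCF/LEF site (CTTTGA). The Ephb6 window held 5 GC boxes and 34 CpG dinucleotides, more CpG than 92.3% of the 32851 promoters of the same length. The Efnb2 window held 35 CpG, more than 93% of promoters, the Efnb1 window 14 and the Epha2 window 10. The Epha2 window held 1 GC box, on the minus strand, and 1 TCF/LEF site, and the Efnb1 window held none of the 6 motifs. A GC box was present in 35.7% of all promoters and a TCF/LEF site in 16%. The windows of Ephb4 and Efnb2 held 4 and 3 GC boxes, and that of Efnb2 also a TATA box, on the reverse strand of the window. A TATA box was found on either strand in 13.6% of all promoters. These matches are letters in a window and say nothing on whether a factor binds there.

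Among the receptors, Epha2 and Ephb6 separated the lines in opposite directions, and among the ligands Efnb1 did so. Epha2 was 3.2-fold lower and Efnb1 2.68-fold lower in LM8 than in Dunn cells when passages were pooled, and Ephb6 was 2.87-fold higher. These 3 of 10 genes were called, where 12.6% of 19753 genes were called in that comparison, 8.31% lower and 4.25% higher. Among genes detected on every array, as these 3 were, 11% were called. The 6 arrays of each line did not overlap for the same 3 genes, where 13.1% of all genes did not overlap.

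**Figure D1:**
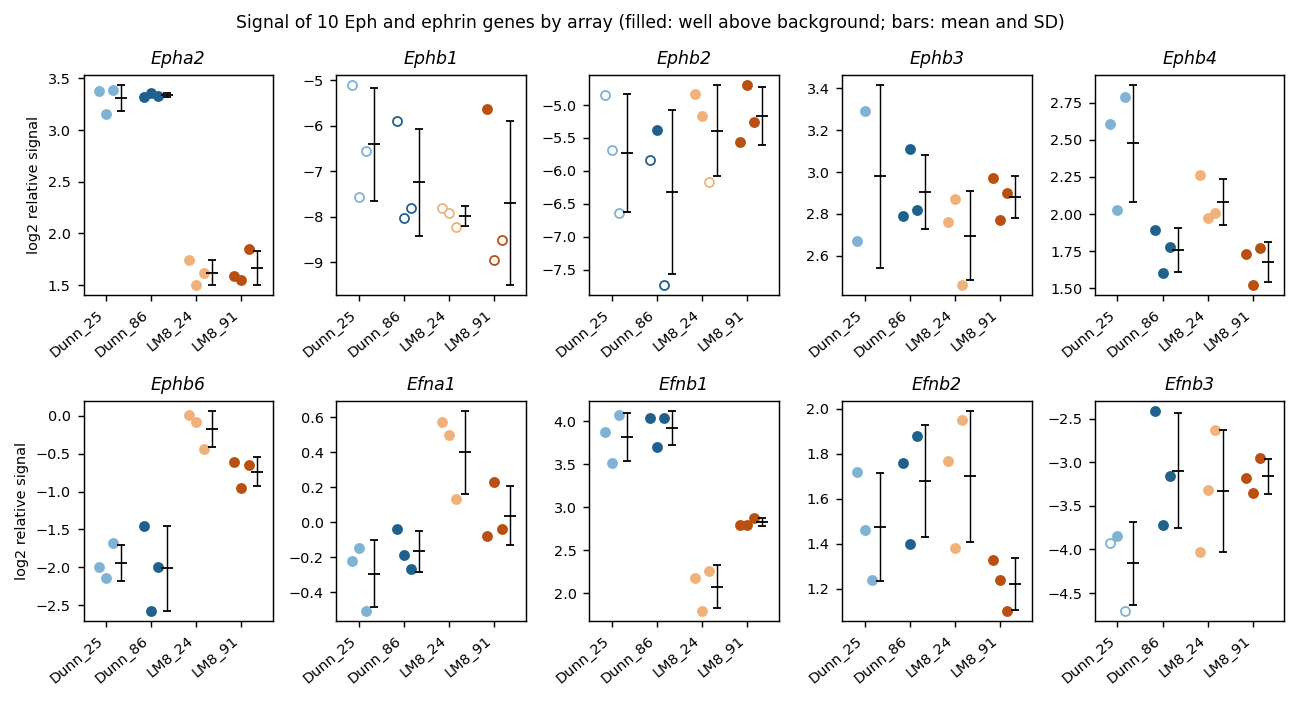
Log2 relative signal of the 10 genes on each array, by group, with filled points for probes well above background, open points for the others, and the group mean and SD as bars. Epha2 and Efnb1 sit higher in both Dunn groups than in both LM8 groups, Ephb6 sits lower in Dunn, and each panel has its own vertical axis.

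Epha2 is the A-class receptor best known from epithelial cells and tumours, where it is often abundant. Its values were 3.38, 3.16 and 3.39 in Dunn_25, 3.32, 3.36 and 3.33 in Dunn_86, 1.74, 1.5 and 1.62 in LM8_24, and 1.59, 1.55 and 1.85 in LM8_91. All 6 Dunn arrays lay above all 6 LM8 arrays, and the early and late arrays of each line overlapped. The group means were 3.31 ± 0.13, 3.33 ± 0.02, 1.62 ± 0.12 and 1.67 ± 0.16 (SD, n = 3 each) in the same order. The pooled difference was -1.68 (SE 0.15, 95% interval -2.0 to -1.36, limma adjusted p = 1.65e-05). On the 3 slides, each of which held 1 array of every group, the difference was -1.68, -1.73 and -1.63. Less the shift of the probes detected on every array, it was -1.43, and between -1.43 and -1.36 over 6 ways of scaling or background correction. Ways that differ only by a constant per array give the same value there by construction. Only quantile normalization (-1.39) and normexp background correction (-1.36) could differ. Without taking off the shift, the deposited values as they stand gave -0.63, which was not called.

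Efna1, the ligand most often paired with Epha2, was -0.22, -0.15 and -0.51 in Dunn_25 and -0.04, -0.19 and -0.27 in Dunn_86. It was 0.57, 0.50 and 0.13 in LM8_24 and -0.08, 0.23 and -0.04 in LM8_91. The early LM8 arrays lay above all Dunn arrays, while late LM8 and late Dunn arrays overlapped. The pooled difference of 0.45 (SE 0.18) had an unadjusted p of 0.0261 and a limma adjusted p of 0.0665 and was not called.

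Ephb6 is the B-class receptor without an active kinase. Its values were -2.0, -2.14 and -1.68 in Dunn_25, -1.46, -2.58 and -2.0 in Dunn_86, 0.01, -0.09 and -0.44 in LM8_24, and -0.61, -0.95 and -0.65 in LM8_91. All LM8 arrays lay above all Dunn arrays, and LM8_91 lay below LM8_24 without overlap. The pooled difference was 1.52 (SE 0.24, 95% interval 1.00 to 2.04, limma adjusted p = 0.00163), and 1.42, 1.84 and 1.29 on the 3 slides. The second Ephb6 probe was well above background on 2 of 12 arrays, with -1.57 on Dunn_86 replicate 1 against -6.69 and -7.37 on the other two, so its difference is not read for or against the result. The mean of both probes, which takes in those values at background, gave 0.52 (adjusted p = 0.423), and the Ephb6 result comes from 1 probe. It was 0.95 after normexp background correction, under 2-fold.

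Efnb1 is a B-class ephrin, encoded on the X chromosome, that carries reverse signals at tissue boundaries, in the skull among others. It was 3.88, 3.52 and 4.07 in Dunn_25, 4.04, 3.7 and 4.04 in Dunn_86, 2.18, 1.79 and 2.26 in LM8_24, and 2.80, 2.80 and 2.88 in LM8_91. Both Dunn groups overlapped each other and lay above both LM8 groups, and late LM8 lay above early LM8 without overlap. The pooled difference was -1.42 (SE 0.23, 95% interval -1.92 to -0.93, limma adjusted p = 0.0018). It was -1.47, -1.32 and -1.48 on the 3 slides, and -1.18 with the shift of the detected probes taken off, between -1.18 and -0.93 over the same 6 ways of processing. Here too only quantile normalization (-1.13) and normexp (-0.93) could differ. The deposited values as they stand gave -0.37 (adjusted p = 0.493), which was not called.

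**Figure D2:**
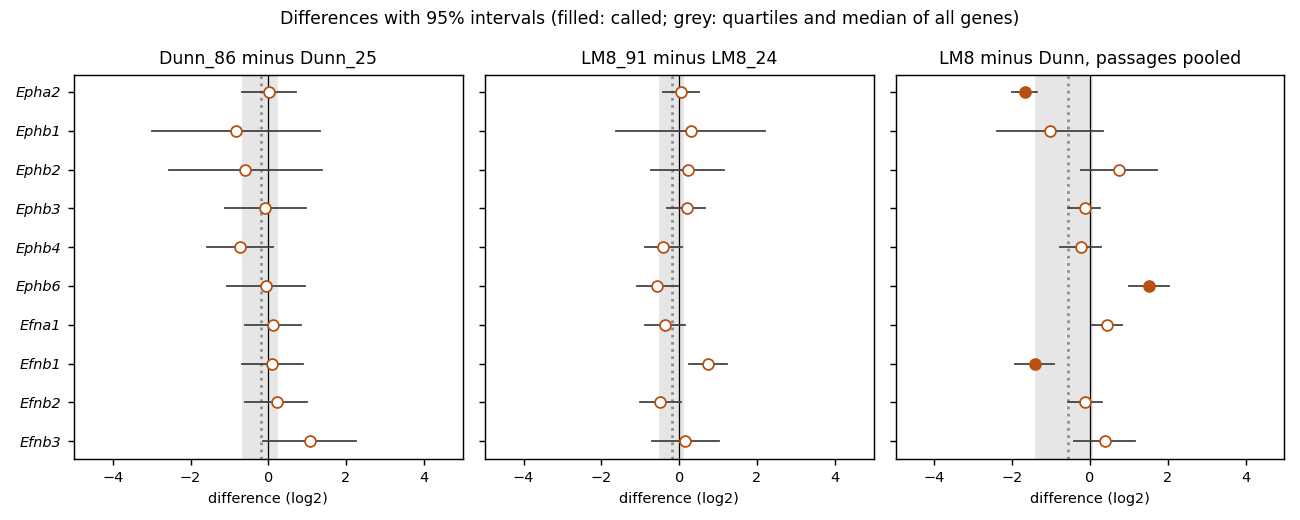
Differences of the 10 genes on the log2 scale with 95% intervals for late minus early Dunn cells, late minus early LM8 cells, and LM8 minus Dunn cells with passages pooled. Filled points are called genes, grey bands span the middle quartiles of all genes and dotted lines mark their median. Only Epha2, Efnb1 and Ephb6 are filled, all in the pooled comparison.

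The other B-class receptors did not pass the test between the lines. Ephb4, the receptor paired with ephrin-B2 in bone and vessels, was 2.48 ± 0.40 in Dunn_25, 1.76 ± 0.15 in Dunn_86, 2.08 ± 0.15 in LM8_24 and 1.67 ± 0.13 in LM8_91 (SD, n = 3 each). Its pooled difference was -0.24 (95% interval -0.76 to 0.28, limma adjusted p = 0.421), and that of its second probe was -0.46 (adjusted p = 0.117). Ephb3 was 2.98 ± 0.44 in Dunn_25 (n = 2, since the spot was flagged as an outlier on replicate 3), 2.90 ± 0.18 in Dunn_86, 2.70 ± 0.21 in LM8_24 and 2.88 ± 0.10 in LM8_91 (SD, n = 3). Its pooled difference was -0.14 (95% interval -0.56 to 0.27).

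Ephb1 and Ephb2 were at the limit of detection. Ephb1 was well above background on 1 of 12 arrays, LM8_91 replicate 1. Ephb2 was well above background on 0, 1, 2 and 3 arrays of Dunn_25, Dunn_86, LM8_24 and LM8_91. The lower bound on the fold was under 1 in every comparison where one side had no such array, so no fold is given.

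Among the ligands, Efnb2, the ephrin of osteoclast precursors and arteries, was 1.47 ± 0.24, 1.68 ± 0.25, 1.70 ± 0.29 and 1.22 ± 0.11 in Dunn_25, Dunn_86, LM8_24 and LM8_91 (SD, n = 3 each). Its pooled difference was -0.12 (95% interval -0.56 to 0.32), and that of its dimmer probe was -0.96 (SE 0.43, limma adjusted p = 0.0908). Efnb3 was well above background on 1 array of Dunn_25 and on all 3 arrays of each other group. Its means were -4.16 ± 0.48, -3.10 ± 0.66, -3.32 ± 0.70 and -3.16 ± 0.20 (SD, n = 3 each), with a pooled difference of 0.39 (95% interval -0.40 to 1.17).

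During long culture of Dunn cells none of the 10 genes was called, where 0.00501% of 19971 genes were called. The lowest limma adjusted p among the members was 0.95, and 0 members had an unadjusted p under 0.05, where 5.2% of genes had. The groups did not overlap for 2 of 10 genes, where 15.2% of all genes did not overlap. These were Efnb3, with a difference of 1.06 (SE 0.48, unadjusted p = 0.0716), and Ephb4, with -0.72 (SE 0.34, unadjusted p = 0.0824). The Ephb4 value depended on the processing: it was -0.88 (unadjusted p = 0.0428) with the 75th percentile over unflagged spots, -0.72 (unadjusted p = 0.016) in 1 fit over all arrays and 0.10 in the deposited table. Its unadjusted p was under 0.05 under 6 of 11 alternatives, and it was called under none of the alternatives. Epha2 differed by 0.02 (95% interval -0.67 to 0.72) and Efnb1 by 0.10 (-0.69 to 0.89), intervals that leave room for changes up to those limits.

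During long culture of LM8 cells 0 of 10 genes were called, where 2.85% of 20142 genes were. At an unadjusted p under 0.05 there were 2 members, Efnb1 and Ephb6, where 15% of all genes had such a p. The mean of each lay nearer to the Dunn means in late than in early LM8 cells. Efnb1 was 0.75 higher in late cells (SE 0.21, unadjusted p = 0.0095, limma adjusted p = 0.182), by 0.62, 1.01 and 0.61 on the 3 slides. The difference of Ephb6 was -0.56 (SE 0.22, unadjusted p = 0.0384, adjusted p = 0.322), with -0.61, -0.86 and -0.21 on the slides. Ephb4 (-0.41, adjusted p = 0.328) and Efnb2 (-0.48, adjusted p = 0.328) also did not overlap between passages, which made 4 of 10 genes with Efnb1 and Ephb6, where 23.3% of all genes did not overlap. Ephb4 was lower in the late array on each slide in both lines, by differences of -0.72, -0.43 and -1.0 in Dunn and -0.53, -0.45 and -0.24 in LM8 cells. The median difference of all probes was -0.19 in Dunn and -0.2 in LM8 culture, and genes lower on every slide were not counted. In the deposited table, without scaling, the Ephb4 difference was 0.1 in Dunn and -0.04 in LM8 culture.

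The passage change did not pass the test of a difference between the lines for any member (limma interaction, all adjusted p = 1, where 0.466% of genes were called), and 0 members had an unadjusted p under 0.05, where 5.78% of genes had. The interaction was 0.64 (SE 0.34, unadjusted p = 0.0849) for Efnb1 and -0.68 (SE 0.35, unadjusted p = 0.0797) for Efnb2. With 3 arrays a group, these intervals, -0.11 to 1.39 and -1.46 to 0.10, are wide.

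The study also compared LM8 with Dunn cells in all 4 pairings of passages, at over 2-fold and an unadjusted p under 0.05. The 4 comparisons share groups. The members that met this were 4 in LM8_24 against Dunn_25, where 26.5% of genes did, 2 in LM8_91 against Dunn_25, where 43.5% did, 3 in LM8_24 against Dunn_86, where 8.8% did, and 3 in LM8_91 against Dunn_86, where 12.3% did. Apart from Epha2, Efnb1 and Ephb6 the 1 such member was Ephb1 in LM8_24 against Dunn_25 (unadjusted p = 0.0432), which was well above background on no array of either group. Epha2, lower, and Ephb6, higher, met this in all 4, so 2 of 10 genes did, where 4.27% of genes did in either direction, 2.57% lower and 1.69% higher. Epha2 was -1.69 in LM8_24 against Dunn_25, -1.65 in LM8_91 against Dunn_25, -1.71 in LM8_24 against Dunn_86 and -1.67 in LM8_91 against Dunn_86. In the deposited table, without scaling, it did not meet the rule in 3 of them, with -0.42 in LM8_24 against Dunn_25, 0 in LM8_91 against Dunn_25 and -0.85 in LM8_91 against Dunn_86. Ephb6 was 1.77, 1.20, 1.84 and 1.27 in the same order.

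Efnb1 was -1.75, -1.0, -1.85 and -1.10, and met the rule in 3 of the 4 comparisons. In LM8_91 against Dunn_25 it fell just short of 2-fold (unadjusted p = 0.0112), and it passed without Dunn_25 replicate 2 (-1.15) or without LM8_91 replicate 3 (-1.03). Which genes met the rule in all 4 depended on the scaling. With the 75th percentile taken over unflagged spots, Efnb1 was -1.23 in LM8_91 against Dunn_25 and passed, and Ephb6 was 0.97 there and did not. In LM8_91 against Dunn_86 Efnb1 fell short with the 75th percentile over detected probes (-0.91), with normexp (-0.94) and in the deposited table (-0.28), and in LM8_24 against Dunn_25 in the deposited table (-0.47). Ephb6 fell short with normexp in LM8_91 against Dunn_25 (0.38), in LM8_91 against Dunn_86 (0.90) and just so in LM8_24 against Dunn_25. With the mean of its probes Ephb6 met the rule in 1 of the 4. Without Dunn_86 replicate 2, Ephb6 was 0.99 in LM8_91 against Dunn_86, and 1 gene, Epha2, met the rule in all 4.

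**Figure D3:**
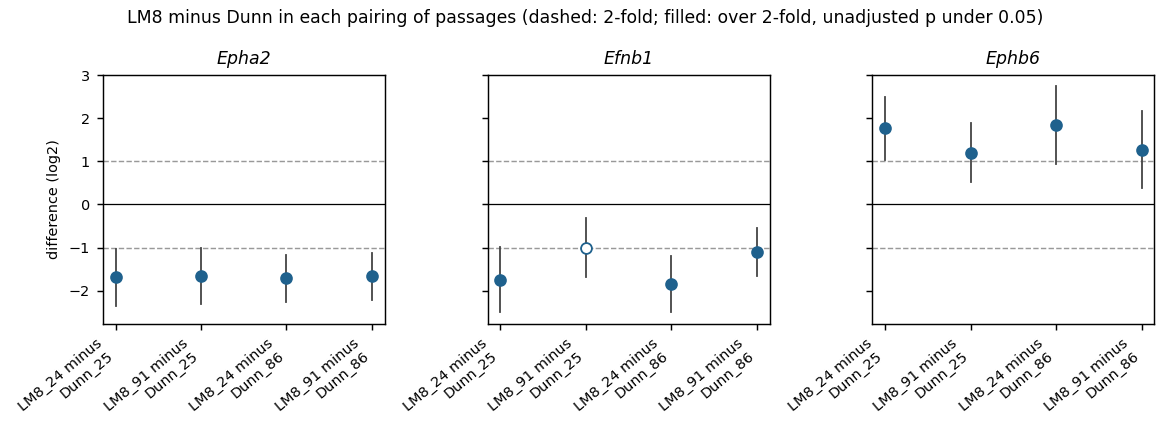
LM8 minus Dunn differences of Epha2, Efnb1 and Ephb6 on the log2 scale with 95% intervals in the 4 pairings of early and late passages, with dashed lines at 2-fold. Filled points passed 2-fold at an unadjusted p under 0.05. The Epha2 differences lie between -1.71 and -1.65, and the open Efnb1 point is LM8_91 against Dunn_25.

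**Figure D4:**
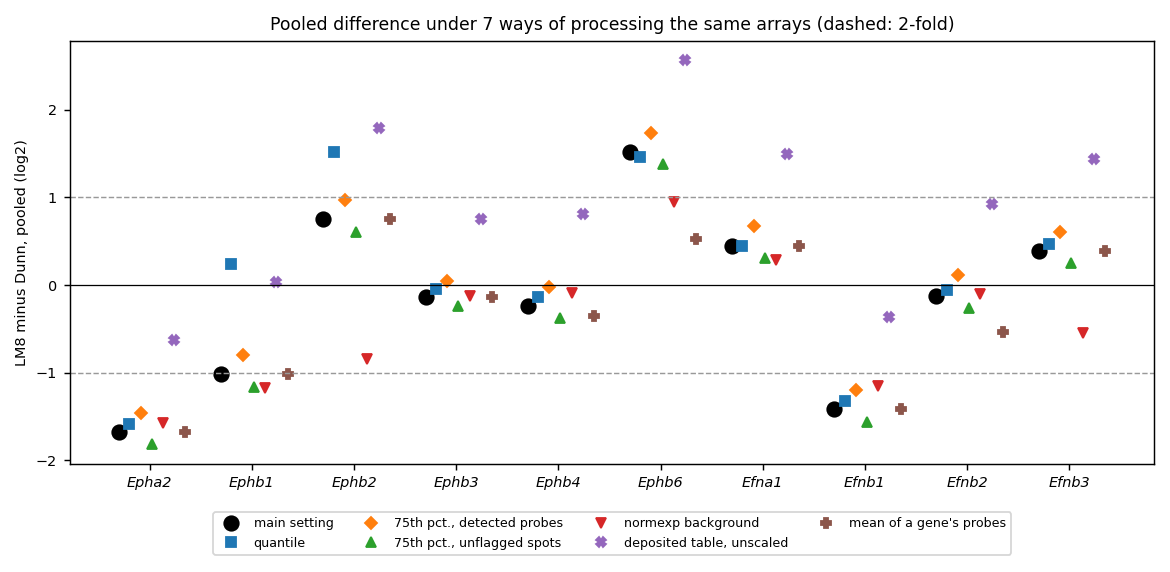
Pooled LM8 minus Dunn difference of the 10 genes on the log2 scale under 7 ways of processing the same arrays, with dashed lines at 2-fold. Epha2 and Efnb1 stay below 0 and Ephb6 above 0 under each of them, while the deposited values without scaling lie above the others for most genes.

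Genes around the receptors and ligands were counted from lists. Of 12 other Eph receptors and A-class ephrins, 1 was higher and 1 lower in LM8 cells with passages pooled. Of all genes, 4.25% were called higher and 8.31% lower in that comparison. The higher one was Epha8, a receptor known from neural tissue, at -3.19 ± 0.31 in Dunn_25, -4.38 ± 0.29 in Dunn_86, -0.14 ± 0.37 in LM8_24 and -0.44 ± 0.22 in LM8_91 (SD, n = 3 each), a difference of 3.50 (limma adjusted p = 2.33e-05), with 4 of 6 Dunn arrays well above background. It was called under each of 23 alternatives, with differences from 1.86 to 4.55, and Vav3 and Pak1, below, were also called under each. The lower one was Epha10, a receptor without an active kinase, which was well above background on 3 of 12 arrays (-1.60, adjusted p = 0.0237). Its call was lost under 5 of 22 alternatives, among them quantile normalization (-0.94). Epha4 was 2.29 higher in late than in early LM8 cells (adjusted p = 0.0128). It was the 1 gene of this list called for culture, where 2.85% of all genes were called in LM8 culture. In Dunn cells the Epha4 mean was also higher late, without a call, at -6.97 ± 1.25 in Dunn_25 and -4.86 ± 0.99 in Dunn_86 (SD, n = 3 each). It was well above background on 0 and 2 arrays of these groups. The Epha4 call was lost under 6 of 17 alternatives, among them 1 fit over all arrays (adjusted p = 0.274) and the methods' t-test (adjusted p = 0.112). The list's median pooled difference was -0.28, against -0.56 over all genes.

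Of 19 genes of forward signalling, 3 were lower and 0 higher in LM8 cells, where 8.31% and 4.25% of all genes were. The list's median was 0.01, against -0.56 over all genes. Vav3 was well above background on 4 Dunn arrays and no LM8 array and was at least 8.97-fold lower (adjusted p = 5.56e-06). Its fitted difference was -4.34, and -1.85 with normexp, which is under that bound. Ngef, the exchange factor ephexin, was seen on 2 Dunn arrays and no LM8 array. Under the main scaling it was at least 4.3-fold (2.1 on the log2 scale) lower (adjusted p = 0.0151). The Ngef call was lost with quantile normalization (-1.27, adjusted p = 0.182) and in the deposited table (-1.42, adjusted p = 0.125). Both differences are under that bound, which therefore holds for the main scaling only. Src, a kinase recruited to Eph receptors and ephrins, had a difference of -2.55 (adjusted p = 0.0278), with 5 of 6 Dunn and 2 of 6 LM8 arrays well above background, and was not called in the deposited table (-1.5) or without any 1 of the 3 LM8_91 arrays (adjusted p = 0.0599, 0.0567 and 0.0649).

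Of 10 genes of reverse signalling at B-class ephrins, 3 were lower and 1 higher, where 8.31% and 4.25% of all genes were. The list's median was -0.72, against -0.56 over all genes. Pak1, a kinase that acts on the actin skeleton, was -1.22 ± 0.21 in Dunn_25, -1.67 ± 0.41 in Dunn_86, -5.76 ± 0.18 in LM8_24 and -4.96 ± 0.29 in LM8_91 (SD, n = 3 each). Its difference was -3.91 (limma adjusted p = 2.08e-06), between -4.05 and -2.64 over the alternatives. Stat3, a transcription factor, was lower (-1.26, adjusted p = 0.00109) and Dvl2, an adaptor shared with Wnt signalling, was higher (1.5, adjusted p = 0.0254). Neither call held throughout: Stat3 was -0.21 in the deposited table and Dvl2 0.57 with normexp. The Dvl2 call was lost under 6 of 23 alternatives. Grip1, a scaffold protein, was called (adjusted p = 0.0472) but was well above background on no array, so no fold is given, and the call was lost under 16 of 22 alternatives. None of the 6 matched genes of shedding and turnover was called, where 12.6% of all genes were with passages pooled.

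Of 16 tested bone genes tied to ephrin-B2 and EphB4 signalling, 4 were called higher and 0 lower in LM8 cells, where 4.25% and 8.31% of all genes were. Pth1r (-0.99, adjusted p = 0.0235), Csf1 (-0.62, adjusted p = 0.029) and Nfatc1 (-0.83, adjusted p = 0.029) were lower but under 2-fold, so they were not called. The list's median was 0.16, against -0.56 over all genes. Msx2, a homeobox factor of osteoblast precursors, had a difference of 3.81 (adjusted p = 9.2e-06), with 1 of 6 Dunn arrays well above background, and of 0.66 with normexp, where it was not called. Tnfrsf11b, the decoy receptor osteoprotegerin that limits osteoclast formation, had a fitted difference of 2.65 (adjusted p = 0.0207). No Dunn array was well above background for it. With a floor on dim signals it was 2.29, or 4.89-fold, and was not called (adjusted p = 0.0526). With normexp it was -0.12 and not called. In late LM8 cells it was lower than in early ones (-1.90, adjusted p = 0.0147). That call was lost under 7 of 17 alternatives, among them 1 fit over all arrays (adjusted p = 0.722) and the methods' t-test (adjusted p = 0.101). Alpl, the alkaline phosphatase of mineralising osteoblasts, was 1.12 higher (adjusted p = 0.0499, with 2 of 3 Dunn_25 arrays in the fit, since 1 spot was flagged). Fos, a part of AP-1, was 1.09 higher (adjusted p = 0.0419) and -0.63 with normexp, with 3 of 6 Dunn arrays well above background. The Alpl call was lost under 11 of 23 alternatives and the Fos call under 10 of 23, 7 of which left out 1 array.

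Of the members, Efnb1 had the widest range of group means, 1.85. The genes whose values followed it most closely over the 12 arrays, among 11300 genes, were Gm5622 (Pearson r = 0.981), Gprc5b (0.978) and Ntf3 (0.977), and those that ran most opposite were Ifi47 (-0.965) and Lrrc56 (-0.956). These are descriptions over arrays that fall into 2 lines, with no test.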

How the data were processed

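Total RNA of 12 samples was hybridised to Agilent mouse 4x44K arrays, 4 arrays on each of 3 slides. Per the file headers, the deposited scanner files hold Feature Extraction 10.7.3 processed signal intensities, background-subtracted by that software and not scaled between arrays; the authors' deposited table of all arrays holds the same signal intensities rounded (largest difference 0.497%). The RNA kit named in the labels and that in the study's methods differ.

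Controls were dropped, outlier-flagged spots were set to missing, and replicate spots of a probe were averaged. Signals were taken to log2 and the 75th percentile of each array over all probes, flagged spots included, was subtracted. This percentile was first taken over unflagged spots. Flagged spots were mostly bright and unequal in number between arrays, and the choice was changed after the members' values and tests under the first version had been seen. The first version is kept as an alternative, and the closing section gives its effect. Probes were named through their accession in RefSeq (GRCm38.p6), which matched 26581 of 39429 probes (67.4%). The test was limma 3.58.1 (lmFit and eBayes, under R 4.3.3), fitted to the arrays of the groups being compared, with Benjamini-Hochberg adjustment over all probes, and a called gene was over 2-fold at an adjusted p under 0.05. For the 4 comparisons of single passages the p was unadjusted. The scripts were tested on simulated data.

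All 10 members, the other lists and the markers were chosen with earlier results of these data known. Members were named whether called or not, and other list genes where called in the pooled or culture comparisons, at most 4 a list. Pth1r, Csf1 and Nfatc1, which were under 2-fold, were named besides these. For the member with the widest range of group means, the 3 genes of highest and 2 of lowest correlation were named. The replicate number marks the slide. The deviations of same-numbered arrays from their group means correlated at over 0.1 in 12 of 18 pairs (-0.23 to 0.684), and the number was used as a block in an alternative. Each group was at 1 position on every slide, so position and group cannot be told apart. Scans coincided with slides. The number of arrays limits the precision. Alternatives were quantile normalization, the 75th percentile over detected probes, normexp background correction (on the median signal, since the files have no mean signal; offset 50), the deposited table, a floor or a filter on dim probes (those not well above background), the mean of a gene's probes, 1 fit over all arrays, the block, the methods' t-test and leaving out each array.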

Additional observations from a re-analysis of the deposited data

How the results depend on the processing

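With passages pooled, 3 members were called under 10 of 11 alternatives and without any 1 array, but these were not always the same genes. The deposited table, which is not scaled, called Efna1, Ephb2 and Ephb6, and normexp called Efnb1, Epha2 and Ephb1. The mean of a gene's probes called 2, Efnb1 and Epha2. The replicate block and the methods' t-test (adjusted by Benjamini-Hochberg) left 3 called. The count stayed 0 under every alternative for Dunn culture, LM8 culture and the interaction. The count of members that met the rule in all 4 single-passage comparisons was 2, and 1 with normexp, with the deposited table and with the mean of a gene's probes. It ranged from 1 to 3 with 1 array left out and was 2 with the methods' t-test. The deposited table moved the shift of the probes detected on every array from -0.25 to 0.80, which by construction moves every difference between the lines. Other causes were not tested.

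Of 859 single differences of members under other settings, 750 kept direction and call, 22 lost the call, 17 gained it and 70 changed sign. Of 600 with 1 array left out these were 557, 6, 6 and 31. The sign changes concerned differences that were not called, except that of Ephb6 in LM8_91 against Dunn_86 with the mean of a gene's probes. Of 162 differences of named genes of the other lists, an analysis added after seeing the data, 132 kept direction and call, 28 lost the call and 2, Fos and Tnfrsf11b, changed sign, and 41 of 168 lost it with 1 array left out. The values after the change of sign follow by setting. With the 75th percentile over detected probes, the sign changed for Efnb2 (0.11) and Ephb3 (0.05) in the pooled lines, Efnb2 (0.07) and Ephb3 (0.18) in LM8_91 against Dunn_25, Efnb3 (0.13), Ephb3 (0.17) and Ephb4 (0.10) in LM8_91 against Dunn_86, Epha2 (-0.05) in the interaction, Ephb3 (0.01) and Ephb6 (0.06) in Dunn culture. With that percentile over unflagged spots, an alternative added after seeing the data, the sign changed for Efna1 (-0.03), Efnb1 (-0.05) and Epha2 (-0.14) in Dunn culture, Efnb2 (-0.03) in LM8_24 against Dunn_86. With the deposited table, the sign changed for Efnb1 (0.64), Efnb2 (1.39), Ephb1 (0.35), Ephb3 (1.37) and Ephb4 (0.84) in LM8_91 against Dunn_25, Efnb2 (0.93), Ephb1 (0.03), Ephb3 (0.75) and Ephb4 (0.81) in the pooled lines, Efnb2 (0.36), Efnb3 (0.76), Ephb1 (0.37), Ephb3 (0.80) and Ephb4 (0.74) in LM8_91 against Dunn_86, Efnb3 (0.23) and Ephb3 (0.25) in LM8_24 against Dunn_86, Epha2 (-0.43), Ephb3 (-0.02) and Ephb4 (-0.14) in the interaction, Ephb2 (0.23), Ephb3 (0.57), Ephb4 (0.10) and Ephb6 (0.75) in Dunn culture, Ephb3 (0.82) and Ephb4 (0.88) in LM8_24 against Dunn_25. With a floor on dim signals, the sign changed for Ephb2 (-0.31) in LM8_24 against Dunn_25, Ephb2 (-0.09) in LM8_91 against Dunn_25. With the mean of a gene's probes, the sign changed for Efnb2 (-0.12) in LM8_24 against Dunn_25, Efnb2 (-0.34) in LM8_24 against Dunn_86, Ephb6 (0.46) in Dunn culture, Ephb6 (-0.05) in LM8_91 against Dunn_86. With normexp, the sign changed for Efna1 (0) and Efnb3 (-0.58) in Dunn culture, Efnb3 (-0.55), Ephb2 (-0.84), Fos (-0.63) and Tnfrsf11b (-0.12) in the pooled lines, Efnb3 (0), Epha2 (-0.07) and Ephb1 (-0.33) in LM8 culture, Efnb3 (-0.84) and Ephb2 (-1.46) in LM8_24 against Dunn_25, Efnb3 (-0.84) and Ephb2 (-1.45) in LM8_91 against Dunn_25, Efnb3 (0.58) and Epha2 (-0.23) in the interaction, Ephb2 (-0.24) in LM8_24 against Dunn_86, Ephb2 (-0.23) and Ephb3 (0) in LM8_91 against Dunn_86. With quantile normalization, the sign changed for Efnb3 (0.05) and Ephb1 (0.01) in LM8_24 against Dunn_86, Efnb3 (0.15), Ephb1 (0.71) and Ephb3 (0.06) in LM8_91 against Dunn_86, Epha2 (-0.04) in the interaction, Ephb1 (0.24) in the pooled lines, Ephb1 (0.47) and Ephb3 (0.04) in LM8_91 against Dunn_25. With 1 array left out, the range in Dunn culture was -0.05 to 0.23 for Efnb1, -0.06 to 0.06 for Epha2, -1.06 to 0.12 for Ephb2, -0.38 to 0.23 for Ephb3 and -0.35 to 0.21 for Ephb6. In LM8_24 against Dunn_86 it was -0.12 to 0.18 for Efnb2 and -0.57 to 0.12 for Efnb3. In LM8 culture it was -0.19 to 0.51 for Efnb3, -0.05 to 0.11 for Epha2, -0.74 to 0.92 for Ephb1 and -0.17 to 0.49 for Ephb2. In LM8_91 against Dunn_86 it was -0.37 to 0.28 for Efnb3, -1.49 to 0.23 for Ephb1 and -0.08 to 0.08 for Ephb3. In the interaction it was -0.07 to 0.10 for Epha2 and -0.05 to 0.57 for Ephb3. In LM8_24 against Dunn_25 it was -0.12 to 0.77 for Ephb2 and -0.59 to 0.02 for Ephb3. In LM8_91 against Dunn_25 it was -0.41 to 0.21 for Ephb3.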
